A study of Mus musculus with 12 samples.

Results

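The galectin genes of the remnant lens were read from RNA-Seq of WT and β8ITG-cKO mice after cataract surgery. The members were chosen by symbol and are Lgals1, Lgals3, Lgals3bp, Lgals4, Lgals8, Lgals9 and Grifin, 7 of the 45859 genes in the deposited tables. They were chosen because Lgals3 was known to differ between the genotypes in its change over time, so the values of Lgals3, and that contrast for all 7 genes, are given as a description with no test. The other 6 genes were tested within each genotype and between genotypes at each time. A total of 12 libraries were made from the lens capsule with its attached lens epithelial cells (LCs) of adult mice aged 2 months, 3 from each condition, and each was a pool of 5 capsules. All mice had the fiber cells of the lens removed, and capsules were taken at once (0 h) or 24 h post cataract surgery (PCS). WT mice were C57BL/6. The β8ITG-cKO mice carried a floxed Itgb8 gene, which encodes the β8 integrin subunit, and the MLR10-Cre transgene, which is active in all lens cells from the lens vesicle stage. Their background was mixed C57BL/6 and 129S1/Sv, so genotype and strain background cannot be told apart in any difference between WT and β8ITG-cKO.

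Galectins are a family of small lectins that bind β-galactosides on glycoproteins and glycolipids. They are made in the cytosol without a signal peptide, leave the cell by an unconventional route, and cross-link integrins, growth factor receptors and matrix proteins at the cell surface, while inside the cell they bind glycans exposed on damaged endosomes and lysosomes. Galectin-1 (Lgals1) has a single binding domain and acts as a dimer, and galectin-3 (Lgals3) has a binding domain with a flexible tail through which it forms oligomers and is widely studied in fibrosis and macrophage biology. Galectin-4, galectin-8 and galectin-9 carry a pair of linked binding domains in 1 chain. Lgals3bp is not a galectin but encodes a secreted, heavily glycosylated ligand of galectin-3. Grifin (galectin-related inter-fiber protein) is a lens fiber protein with the galectin fold, and the mammalian protein does not bind lactose.

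The genes lie on 6 mouse chromosomes in GRCm38.p6. Lgals3 is on the plus strand at chr14:47373860-47386167, and the locus in the deposited tables has the same ends, as it has for Lgals8 (chr13:12439402-12464977, minus strand) and Lgals9 (chr11:78962979-78984924, minus strand). Lgals1 lies on the plus strand at chr15:78926725-78930465, Lgals3bp on the minus strand at chr11:118392747-118401959, Lgals4 on the plus strand at chr7:28833122-28841710 and Grifin on the minus strand at chr5:140563117-140567526. The deposited loci of Lgals1 and Grifin are wider than these genes and were shared with predicted genes, so reads of those predicted genes cannot be fully separated from theirs. A stretch of 155 of the 3688 exon bases of Lgals8 overlaps Heatr1 on the other strand, and whether strand was used in counting is not given in the sources used here. Lgals4 has a near-identical copy, Lgals6, in some strains, and reads of the pair could not be told apart.

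Upstream sequence is shown for Lgals3, whose values led to the choice of the set, for Grifin, which moved the other way over time, and for Lgals9, which in many cells is induced by interferon. Each run holds, in the direction of transcription, the 250 bases before 1 RefSeq start of transcription of the gene (GRCm38.p6), at chr14:47373610-47373859 for Lgals3, chr5:140565068-140565317 for Grifin and chr11:78984925-78985174 for Lgals9. For Lgals3 and Lgals9 this start is the outer end of the gene as given above, and for Grifin it is a start 2459 bases inside it, since some RefSeq transcripts begin farther upstream. Capitals mark a match to 1 of the searched motifs.
Lgals3: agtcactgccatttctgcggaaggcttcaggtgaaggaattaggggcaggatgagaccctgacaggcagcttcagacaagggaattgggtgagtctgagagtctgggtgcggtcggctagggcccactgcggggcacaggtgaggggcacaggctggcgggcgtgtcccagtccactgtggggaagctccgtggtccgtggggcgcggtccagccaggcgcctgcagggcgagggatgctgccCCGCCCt
Grifin: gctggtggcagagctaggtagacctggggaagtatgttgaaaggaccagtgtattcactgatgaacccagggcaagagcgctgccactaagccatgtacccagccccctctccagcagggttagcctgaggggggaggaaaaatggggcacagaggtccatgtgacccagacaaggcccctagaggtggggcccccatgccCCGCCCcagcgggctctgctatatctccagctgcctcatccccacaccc
Lgals9: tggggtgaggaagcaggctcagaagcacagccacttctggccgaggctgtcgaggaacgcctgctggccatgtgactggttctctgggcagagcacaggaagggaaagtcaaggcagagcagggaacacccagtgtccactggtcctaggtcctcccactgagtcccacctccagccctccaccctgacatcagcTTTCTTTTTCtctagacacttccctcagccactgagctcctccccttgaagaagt
Motifs were searched on both strands as AP-1 (TGANTCA), GC box (GGGCGG), the interferon-stimulated response element (ISRE, GAAANNGAAA), the Maf half-site (TGCTGAC), the TATA box (TATAAA) and kappaB. The Lgals3 window had a GC box on the minus strand whose first base lies 7 bases before the start, and GC made up 66% of its bases against a median of 52.4% over all 32851 windows. The Grifin window held a GC box 49 bases before its start, and 32.7% of all windows held 1 or more. An ISRE match stood 55 bases before the start of Lgals9, which 2.98% of windows hold. The window of Lgals3bp held a Maf half-site 61 bases before the start (3.81% of windows). The windows at hand for Lgals4 and Lgals8 lie before starts 672 and 3239 bases inside these genes and held none of the 6 motifs. Bases before the outer starts of Grifin, Lgals4 and Lgals8 were not analysed here. A match describes letters only.

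Values are FPKM, the number of sequenced fragments of a gene divided by its transcript length and by the size of the library, so that levels of different genes can be compared. The number of reads was not given, but the steps between low FPKM gave depths of 0.874 to 1.1 relative to a common reference, the highest 1.26 times the lowest. The lens epithelial genes Foxe3 (25.5 to 172 FPKM), Pax6 (59.9 to 93.5) and Cdh1 (37.7 to 98.3) were measured in all 12 libraries, but not at equal levels. Of 6 lens epithelial genes 1 rose and 2 fell over time in WT and 5 fell in β8ITG-cKO, with medians of -0.13 and -1.39. Before rescaling 20.9% of all genes tested rose and 8.81% fell in WT, and 10.7% fell in β8ITG-cKO. After rescaling to the same median of all genes 3 lens epithelial genes fell in WT and 6 in β8ITG-cKO, with 0 rising in either. The summed FPKM of the 6 lens epithelial genes at 24 h was 18000 to 21600 in WT and 11600 to 14000 in β8ITG-cKO, without overlap. Cryaa (means of 14500 and 9050 FPKM) and Cryab (4550 and 3410) made up nearly all of that sum. Neither passed between genotypes at 24 h (adjusted p = 0.334 and 0.449), and Foxe3, Pax6 and Gja1 did not pass either. Only Cdh1 (E-cadherin) passed, as lower in β8ITG-cKO (-0.92, SE 0.14, adjusted p = 0.00982). The part of these shifts in the galectin values was not tested. The 0 h sums are not given, since replicate 2 of WT at 0 h lists 0 FPKM for Cryaa. Summed FPKM of 8 photoreceptor genes was 825 to 966 in the 3 β8ITG-cKO libraries at 24 h, 71.3 to 132 in WT at 24 h, and 1120 in WT 0 h replicate 2 against 135 and 329 in the other WT 0 h libraries. In β8ITG-cKO at 0 h this sum was 170 to 319. All 8 photoreceptor genes passed the test as higher in β8ITG-cKO at 24 h, where 6.29% of all genes tested passed in either direction. Itgb8 itself read 7.26, 10.8 and 8.42 FPKM in WT and 6.83, 4.58 and 7.31 in β8ITG-cKO at 0 h, and 9.08, 8.38 and 9.58 against 9.28, 11.8 and 10.3 at 24 h, so its FPKM over the whole gene did not check the labels, on which the directions between genotypes rest. The floxed part is a single exon, which FPKM over the whole gene does not measure by itself. The paper reports the deletion by PCR of lens DNA and by absence of β8 integrin staining in β8ITG-cKO LCs.

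Over the first 24 h PCS, of the 6 genes tested in WT LCs, the galectin genes Lgals1 and Lgals9 and the ligand gene Lgals3bp rose and Grifin fell, at an adjusted p of at most 0.05 in limma-trend on log2(FPKM + 1). Among all 15146 genes tested, 29.7% passed, 20.9% upward and 8.81% downward. In β8ITG-cKO LCs 3 of 6 passed, Lgals1 and Lgals8 upward and Grifin downward, where 46.1% of 15237 genes passed, 35.4% upward and 10.7% downward. Between the genotypes 0 of 6 passed at 24 h (6.29% of 15366 genes did) and 0 of 6 at 0 h (6.94% of 14708), with 2 and 1 of them at an unadjusted p under 0.05. The share of all genes at an unadjusted p under 0.05 is not given. Counts at that threshold, here and below, therefore have no background beside them. All 7 genes passed the filter on low values in each comparison. Libraries of the 2 conditions compared did not overlap for 5 of 6 genes over time in WT (46.9% of all genes tested). Over time in β8ITG-cKO the count was 3 of 6 (56.9%). Between genotypes it was 2 of 6 at 24 h (26.5%) and 2 of 6 at 0 h (30.8%). Lgals3 is left out of these counts. The comparisons share libraries and are therefore not independent of each other.

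**Figure D1:**
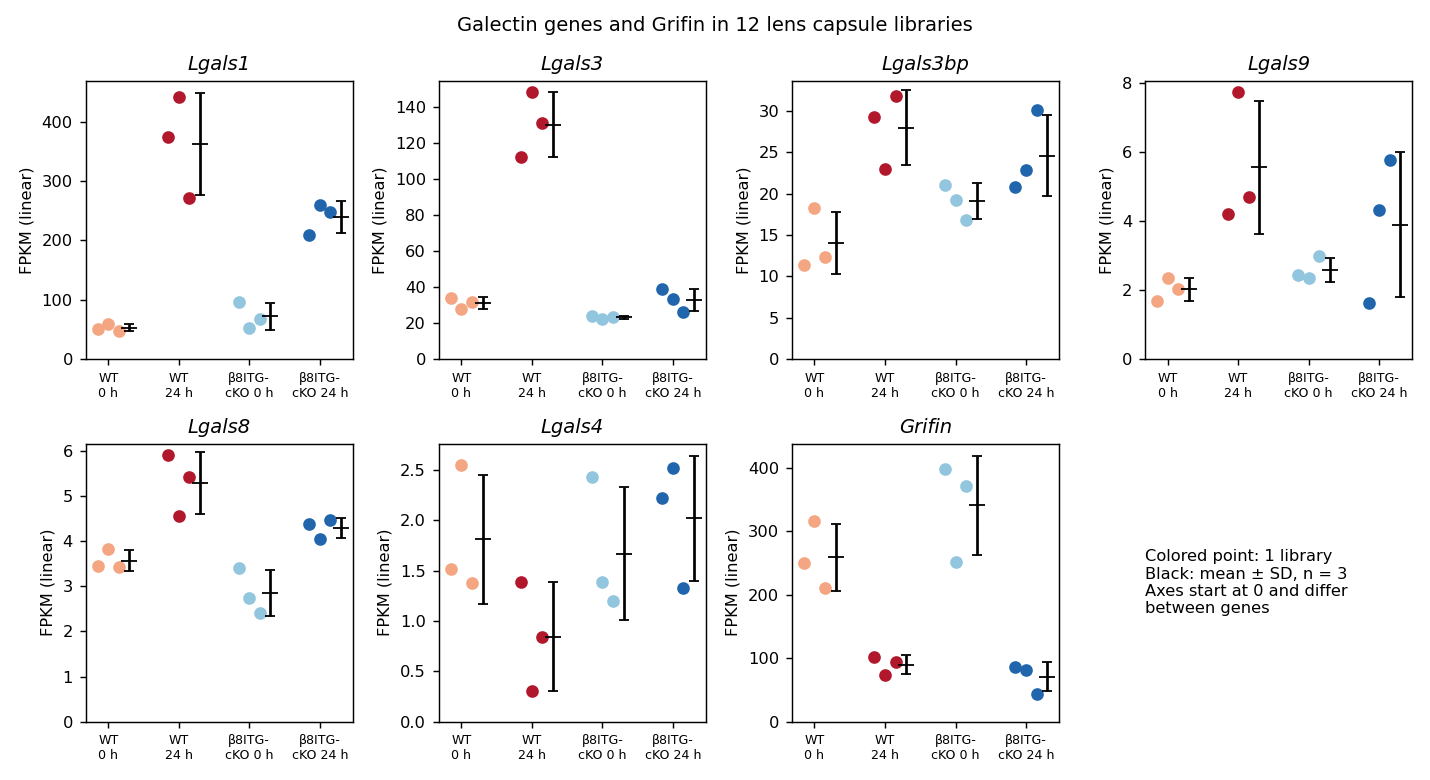
FPKM (linear axes that start at 0) of the 7 genes in 12 libraries, by genotype and time, each colored point a library and each black mark the mean with its SD (n = 3). The 3 WT libraries at 24 h sit between 112 and 148 FPKM for Lgals3, above all 9 other libraries, while Grifin is at 44.3 to 102 FPKM in all 6 libraries at 24 h.

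At 0 h the order of levels was the same at the top in both genotypes. In WT it ran Grifin (259 FPKM ± 53.1, SD, n = 3), Lgals1 (52.7 ± 5.72), Lgals3 (31.1 ± 3.22), Lgals3bp (14 ± 3.74), Lgals8 (3.56 ± 0.232), Lgals9 (2.02 ± 0.327) and Lgals4 (1.81 ± 0.639). Only the last neighbours, Lgals9 and Lgals4, overlapped between libraries. In β8ITG-cKO at 0 h the order was again Grifin, Lgals1, Lgals3 and Lgals3bp, followed by Lgals8, Lgals9 and Lgals4, which overlapped with their neighbours. By 24 h Lgals1 led in both genotypes. The second place was held by Lgals3 in WT, ahead of Grifin, and by Grifin in β8ITG-cKO, where Lgals3 and Lgals3bp overlapped. By mean FPKM, Lgals1 went from rank 526 of 14902 genes in WT at 0 h to 122 of 14837 at 24 h, and Grifin from 134 to 395. For Lgals3 the ranks in WT were 1015 and 265.

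Lgals3, the gene for galectin-3, was 34.1, 27.7 and 31.5 FPKM in the WT libraries at 0 h and 112, 148 and 131 at 24 h. In β8ITG-cKO it was 23.7, 22.2 and 23.4 FPKM at 0 h and 38.6, 33.3 and 26.1 at 24 h. Each of the 4 pairs of conditions was free of overlap, and the WT libraries at 24 h stood far above the rest. The mean at 24 h was 4.18 times that at 0 h in WT (log2 change of 2.02, SE 0.16) and 1.41 times in β8ITG-cKO (0.47, SE 0.14). At 24 h the β8ITG-cKO mean was 3.98-fold lower than the WT mean, and at 0 h it was 1.35-fold lower. With FPKM rescaled to the same median the change in β8ITG-cKO was 0.18 (SE 0.16) and that in WT 1.76 (SE 0.16). Its rank by mean FPKM in β8ITG-cKO was 1545 of 14256 genes at 0 h and 1191 of 15601 at 24 h.

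Lgals1, the gene for galectin-1, read 51.3, 59 and 47.8 FPKM in WT at 0 h and 374, 442 and 271 at 24 h. The β8ITG-cKO libraries held 95.8, 52.1 and 67.2 FPKM at 0 h and 209, 260 and 247 at 24 h. Every library at 24 h exceeded every library at 0 h. It rose 6.88-fold in WT (log2 change 2.74, SE 0.21, adjusted p = 0.000238) and 3.33-fold in β8ITG-cKO (1.76, SE 0.21, adjusted p = 0.000463). At 24 h all 3 β8ITG-cKO libraries were below all 3 WT libraries, with means 1.52-fold apart, but the difference of -0.58 (SE 0.22) did not pass (adjusted p = 0.186). Without WT 24 h replicate 3, the lowest of the WT libraries, it was -0.77 with an adjusted p of 0.0474. At 0 h the groups overlapped, and the difference was 0.40 (SE 0.21, adjusted p = 0.293).

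Lgals3bp, which encodes a secreted ligand of galectin-3, was 11.4, 18.3 and 12.3 FPKM in WT at 0 h and 29.3, 23 and 31.8 at 24 h. In β8ITG-cKO the values were 21.1, 19.3 and 16.8 at 0 h and 20.8, 22.9 and 30.1 at 24 h. The 3 WT libraries at 24 h were above those at 0 h, while in β8ITG-cKO the times overlapped, as did the genotypes at each time. Lgals3bp rose in WT (log2 change 0.97, SE 0.21, adjusted p = 0.0121), a call that was lost without WT 0 h replicate 1 (adjusted p = 0.0529). In β8ITG-cKO the change was 0.34 (SE 0.15, adjusted p = 0.105). The difference between genotypes was 0.45 at 0 h (SE 0.18, adjusted p = 0.179) and -0.19 at 24 h (SE 0.19, adjusted p = 0.627). Without WT 0 h replicate 2, the library with the highest photoreceptor sum, the 0 h difference was 0.64 with an adjusted p of 0.0391.

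Lgals9, which encodes a ligand of the immune receptor Tim-3, stood at 1.69, 2.34 and 2.04 FPKM in WT at 0 h and 4.21, 7.76 and 4.71 at 24 h. The β8ITG-cKO libraries gave 2.44, 2.34 and 2.99 FPKM at 0 h and 1.63, 4.31 and 5.78 at 24 h. The β8ITG-cKO replicate 1 at 24 h was therefore below every β8ITG-cKO library at 0 h, while the other two were above. In WT the gene rose (log2 change 1.08, SE 0.22, adjusted p = 0.0105). In β8ITG-cKO the change was 0.35 (SE 0.32, adjusted p = 0.402), and without replicate 1 it was 0.74 with an adjusted p of 0.0122. Between genotypes the difference was 0.25 at 0 h (SE 0.15, adjusted p = 0.342) and -0.49 at 24 h (SE 0.36, adjusted p = 0.505), or -0.09 without β8ITG-cKO replicate 1 and -0.26 without WT replicate 2 at 24 h.

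Lgals8, whose product marks damaged endosomes and lysosomes for autophagy, stayed between 2.41 and 5.9 FPKM in all 12 libraries. Its level was 3.44, 3.83 and 3.42 FPKM in WT at 0 h and 5.9, 4.55 and 5.41 at 24 h, and in β8ITG-cKO 3.4, 2.75 and 2.41 at 0 h and 4.37, 4.04 and 4.46 at 24 h. In both genotypes the libraries at 24 h lay above those at 0 h. The log2 change was 0.46 in each, with SE 0.15 and an adjusted p of 0.0546 in WT, and SE 0.13 and an adjusted p of 0.0199 in β8ITG-cKO. In β8ITG-cKO it did not pass on rescaling to the same median (0.23, adjusted p = 0.178), nor without any of 4 libraries, replicates 2 and 3 at 0 h and 1 and 3 at 24 h, where the change was still 0.38 to 0.45 (adjusted p from 0.0539 to 0.0728), while in WT it passed with a filter of 2 FPKM (adjusted p = 0.0426) and in 1 fit over 12 libraries (0.0146). Differences between genotypes were -0.25 at 0 h (SE 0.14, adjusted p = 0.317) and -0.24 at 24 h (SE 0.14, adjusted p = 0.38).

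Lgals4, best known from intestinal epithelium, was near the low end of the scale. It measured 1.52, 2.55 and 1.38 FPKM in WT at 0 h and 1.39, 0.305 and 0.837 at 24 h, and 2.43, 1.39 and 1.2 at 0 h and 2.22, 2.52 and 1.33 at 24 h in β8ITG-cKO. The groups overlapped in each comparison. The changes over time were -0.63 in WT (SE 0.27, adjusted p = 0.116) and 0.18 in β8ITG-cKO (SE 0.22, adjusted p = 0.533). At 24 h the difference between genotypes was 0.73 (SE 0.26, adjusted p = 0.172) and at 0 h it was -0.08 (SE 0.23, adjusted p = 0.866). The signs of the change in β8ITG-cKO and of the 0 h difference turned under other settings, and at these levels 1 FPKM added before taking logs makes a log2 change smaller than the ratio of the means.

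Grifin was the highest of the 7 genes at 0 h, with 250, 316 and 211 FPKM in WT and 399, 252 and 372 in β8ITG-cKO. At 24 h it was 102, 73.7 and 94.5 FPKM in WT and 86, 82.3 and 44.3 in β8ITG-cKO. All 6 libraries at 24 h were below all 6 libraries at 0 h. It fell 2.88-fold in WT (log2 change -1.51, SE 0.21, adjusted p = 0.00226) and 4.81-fold in β8ITG-cKO (-2.28, SE 0.28, adjusted p = 0.000504). The genotypes overlapped at both times, and the differences of 0.38 at 0 h (SE 0.22, adjusted p = 0.321) and -0.39 at 24 h (SE 0.27, adjusted p = 0.473) did not pass. Without β8ITG-cKO 24 h replicate 3 the latter was -0.09.

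**Figure D2:**
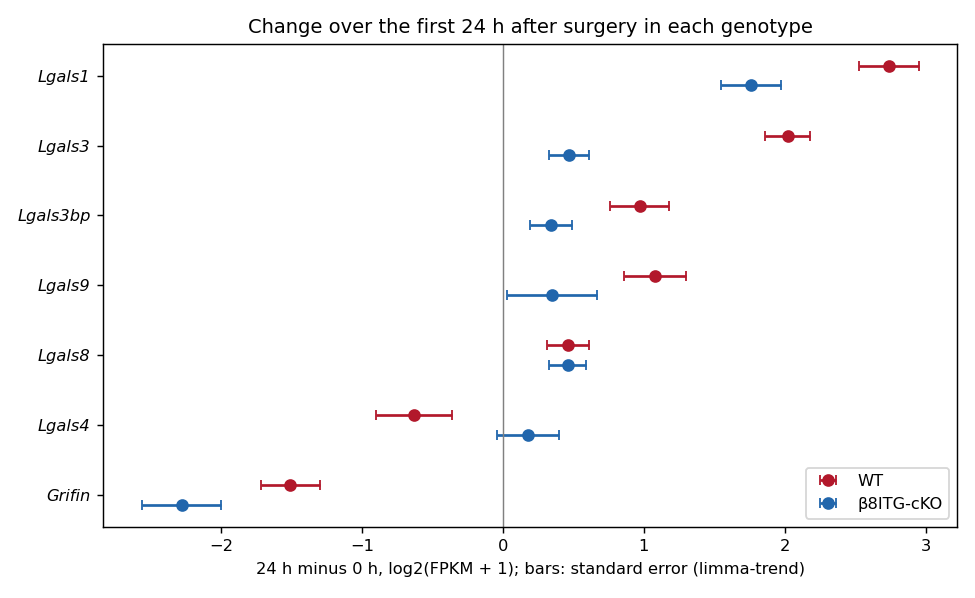
Change from 0 h to 24 h PCS of each gene on the log2(FPKM + 1) scale (x axis) in WT and β8ITG-cKO, each point an estimate from 3 against 3 libraries with its standard error. The points of Lgals8 lie at 0.46 in both genotypes, whereas those of Lgals3 lie at 2.02 and 0.47.

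For 5 of the 7 genes, Lgals3 among them, the estimate of the change in β8ITG-cKO was below that in WT, as it was for 49.5% of all genes tested. The estimate of the difference between the changes (β8ITG-cKO minus WT) was -1.56 for Lgals3 (SE 0.21), -0.97 for Lgals1 (SE 0.32), -0.77 for Grifin (SE 0.38), -0.74 for Lgals9 (SE 0.42) and -0.63 for Lgals3bp (SE 0.27). Without β8ITG-cKO 24 h replicate 3 that of Grifin was -0.47, and without β8ITG-cKO 24 h replicate 1 that of Lgals9 was -0.34. Lgals8 gave 0.01 (SE 0.18) and Lgals4 gave 0.81 (SE 0.37), or 1.44 with a pseudocount of 0.1. These differences were not tested, since this contrast led to the choice of the genes. Over all 15262 genes the changes differed between genotypes for 9.39% at an adjusted p of at most 0.05, and 72.8% of those had the higher change in β8ITG-cKO. For Grifin the lower estimate stands for a steeper fall, not a smaller rise. Over all genes tested the median change over time was 0.16 in WT and 0.23 in β8ITG-cKO, and rescaling to the same median moved these to -0.05 and -0.00. Of the genes past the test, 70.3% were higher at 24 h in WT and 76.7% in β8ITG-cKO, against 47.3% and 51.7% after rescaling. Between genotypes 89.8% of those past the test were higher in β8ITG-cKO at 24 h, and 77% after rescaling.

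Ratios of genes within a library do not depend on how libraries were scaled to each other. The level of Lgals3 relative to Lgals1 was 0.665, 0.47 and 0.659 in WT at 0 h and 0.298, 0.334 and 0.484 at 24 h. In β8ITG-cKO it was 0.248, 0.426 and 0.348 at 0 h and 0.185, 0.128 and 0.106 at 24 h. At each time all β8ITG-cKO libraries were below all WT libraries, and only in WT did the ratios at 0 h and 24 h overlap. The ratio of Lgals1 to Grifin lay between 0.18 and 0.24 in all 6 libraries at 0 h and between 2.43 and 6 in all 6 at 24 h, with the genotypes overlapping at each time.

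**Figure D3:**
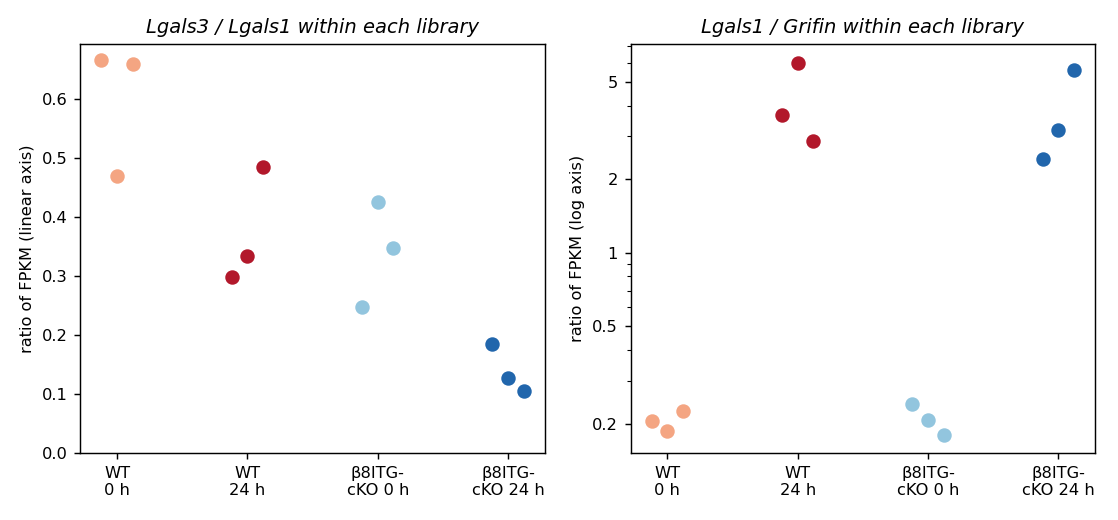
Ratio of the FPKM of Lgals3 to Lgals1 (left, linear axis from 0) and of Lgals1 to Grifin (right, log axis) in each of 12 libraries, by genotype and time. The left ratio is 0.106 to 0.185 in β8ITG-cKO at 24 h, below all 9 other libraries, and the right ratio separates the times in both genotypes.

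Other cells contribute to these pooled capsules, and in bulk RNA fewer cells of a type and less RNA per cell cannot be told apart. Beside Grifin, the summed FPKM of 10 lens fiber genes was 31700 to 47100 in WT and 38500 to 45300 in β8ITG-cKO at 0 h, and 11200 to 15800 and 7420 to 9730 at 24 h, with all 10 measured. Of the 9 fiber genes tested, 8 fell in WT and 9 in β8ITG-cKO, where 8.81% and 10.7% of all genes tested fell. The β8ITG-cKO library with the lowest Grifin at 24 h, replicate 3, also had the lowest fiber sum. Beside Lgals3, the sum of 10 macrophage genes was 12.8 to 23.7 in WT and 11.6 to 17.7 in β8ITG-cKO at 0 h, and 35.7 to 56 and 37.1 to 60.7 at 24 h. Among 9 tested over time, 3 rose in WT and 5 in β8ITG-cKO, with medians of -0.12 and 0.94, where 20.9% and 35.4% of all genes rose. In WT most of the rise in the sum came from Lyz2 (means of 5.32 and 15.5 FPKM), Cd14 (0.544 and 12.8) and Cd68 (0.488 and 7.64). The WT means of C1qa, C1qb, C1qc, Csf1r and Mrc1 were lower at 24 h. None of the 9 macrophage genes tested passed between genotypes at 24 h in limma-trend, with 2 at an unadjusted p under 0.05.

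The sum of 8 neutrophil genes was 0.511 to 0.714 in WT and 0.459 to 1.41 in β8ITG-cKO at 0 h. At 24 h it was 45.5 to 64.4 in WT and 12 to 34.7 in β8ITG-cKO, without overlap, and Ly6g, Mpo and Elane were listed at 0 in all libraries. Of 5 neutrophil genes tested 0 passed between genotypes at 24 h in limma-trend, with 4 at an unadjusted p under 0.05. Of 5 Müller glia genes, Glul, which other cells also express, made up most of the sum of 171 to 310 in WT and 155 to 259 in β8ITG-cKO at 24 h. Slc1a3 passed as higher in β8ITG-cKO at 24 h, at means of 3.99 and 12.6 FPKM, and Rlbp1 averaged 1.95 and 7.37 (adjusted p = 0.0686). Of 4 corneal epithelial genes, Aldh3a1 made up nearly all of the sum, at 208 to 264 in WT and 535 to 911 in β8ITG-cKO at 0 h and 151 to 392 and 138 to 189 at 24 h, while the keratin genes Krt12, Krt5 and Krt14 did not exceed 6.88 in any library. Red blood cell genes (5) summed to 68 to 153 in WT and 6.52 to 15.8 in β8ITG-cKO at 0 h, and to 36 to 220 and 87.4 to 195 at 24 h. Corneal stroma genes (4) did not exceed 8.9, with Kera at 0 in 3 of the 4 conditions, and genes of iris and ciliary pigment cells (5) summed to 11.5 to 83.7. The part of these cells, or of the photoreceptor RNA given above, in the galectin values was not tested.

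**Figure D4:**
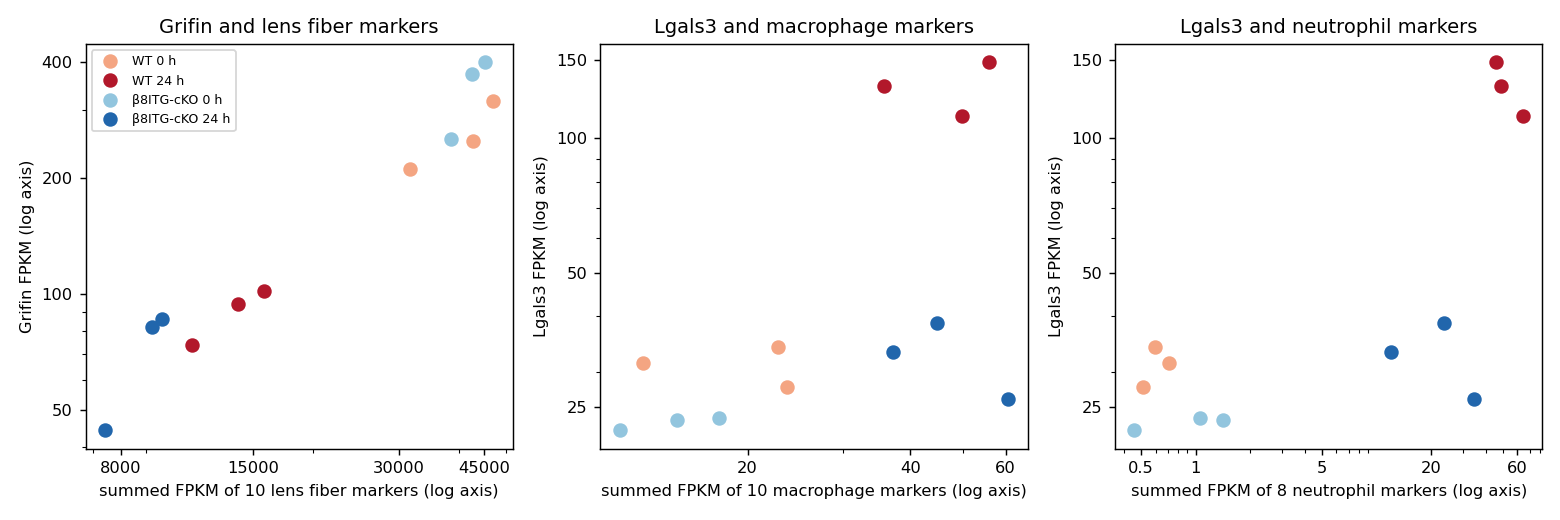
Grifin against the summed FPKM of 10 lens fiber genes, and Lgals3 against those of 10 macrophage and 8 neutrophil genes, in 12 libraries (all axes log, each point a library). Grifin and the fiber sum are both lower in every library at 24 h, while at 24 h Lgals3 is 112 to 148 FPKM in WT and 26.1 to 38.6 in β8ITG-cKO, where the macrophage sums of the genotypes overlap and the neutrophil sums (45.5 to 64.4 and 12 to 34.7) do not.

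The genes whose profile over the 12 libraries was most like that of Lgals3 were found by the root mean square difference between log2(FPKM + 1) profiles, each centred on its own mean, among 6905 genes. They were Akap2 (0.35 log2 units), which encodes an anchor of protein kinase A, Pdpn (0.44), the mucin-type membrane glycoprotein podoplanin, the serine protease inhibitor gene Serpinb6b (0.46), Noct (0.47), which encodes nocturnin, and Nupr1 (0.48), a stress-induced nuclear protein gene. The spread of Lgals3 around its own mean was 0.96 log2 units. Pdpn averaged 76.8 and 217 FPKM in WT at 0 h and 24 h, and 71 and 114 in β8ITG-cKO. Serpinb6b averaged 5.97 and 24.6 in WT, and 2.52 and 5.61 in β8ITG-cKO. Lgals1 was 0.81 log2 units from Lgals3, at place 1499, and Lgals3bp was 0.83 away.

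Closest to Grifin were Sema3d (0.24 log2 units), which encodes a secreted semaphorin, the β-crystallin gene Crybb2 (0.24), Tmem40 (0.28), the β-crystallin gene Cryba2 (0.28) and Palm2 (0.29), where the spread of Grifin was 1.01. Crybb2 is also 1 of the fiber genes summed above. Sema3d averaged 9.69 and 2.65 FPKM in WT at 0 h and 24 h, and 10.8 and 1.42 in β8ITG-cKO. Akap2 and Palm2 are neighbours with read-through transcripts, so reads of the pair may be shared. These likenesses are descriptions over 12 libraries, in which the conditions set most of the profile.

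**Figure D5:**
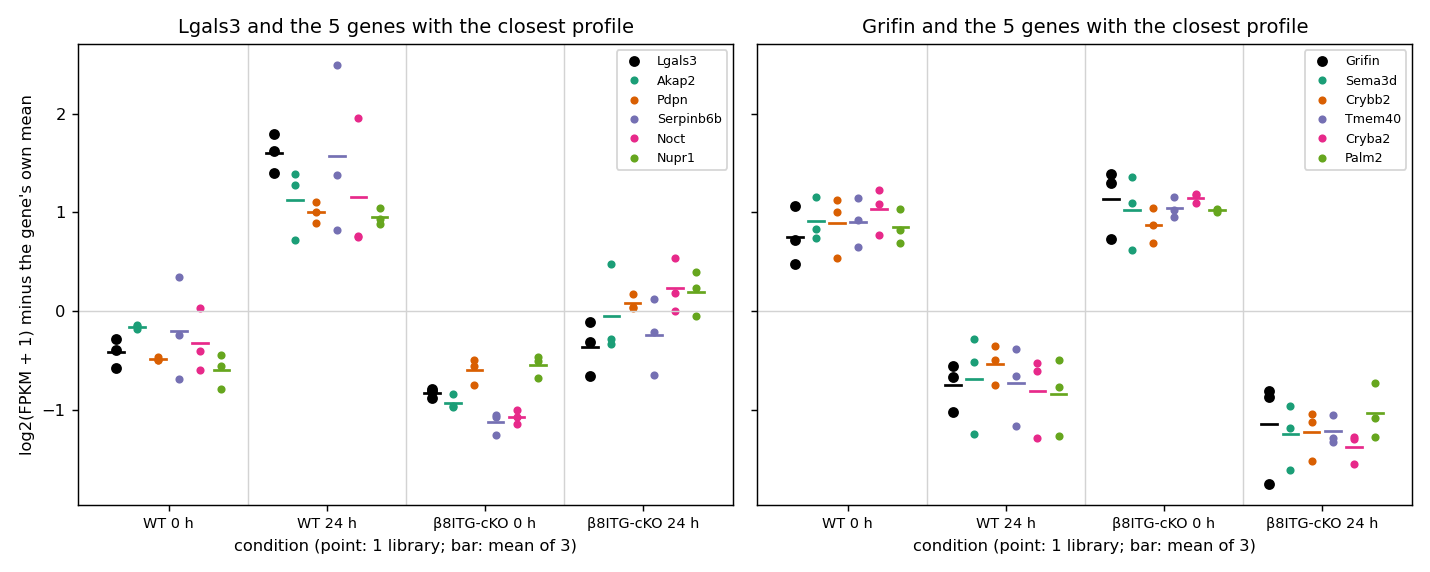
Profiles of Lgals3 and Grifin (black) and the 5 genes closest to each, as log2(FPKM + 1) minus the gene's own mean (y axis), in 3 libraries of each condition, with bars at the means. The genes near Lgals3 are highest in WT at 24 h, and those near Grifin are lower in all libraries at 24 h than at 0 h.

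Of 5 further galectin family genes, 4 had a row and 2 were tested in each comparison. Lgals2, a galectin gene of the digestive tract, was 1.53, 2.63 and 2.32 FPKM in WT and 1.06, 0 and 0.0872 in β8ITG-cKO at 0 h, and 2.56, 6.26 and 3.08 against 0, 0.731 and 0.262 at 24 h. It was lower in β8ITG-cKO at both times (log2 difference -1.26, SE 0.29, adjusted p = 0.0436 at 0 h, and -1.86, SE 0.31, adjusted p = 0.0141 at 24 h). Its exons overlap those of Cdc42ep1 on the other strand by 38 bases, and both share a locus in the tables. Lgalsl, which encodes a galectin-related protein, was 3.28, 4.35 and 4.15 FPKM in WT and 8.25, 7.36 and 8.36 in β8ITG-cKO at 24 h. It rose over time in β8ITG-cKO (log2 change 0.87, SE 0.12, adjusted p = 0.00106) and was higher in β8ITG-cKO at 24 h (0.87, SE 0.14, adjusted p = 0.0125), and the difference between its changes over time did not pass (0.80, SE 0.26, adjusted p = 0.0787).

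Glycans decide what galectins can bind, and genes of the enzymes that branch and cap them mostly rose over time. Of 14 such genes, all tested, 9 rose and 1 fell in WT, and 10 rose and 1 fell in β8ITG-cKO. Of all genes tested 20.9% rose in WT and 35.4% in β8ITG-cKO. Their median log2 change was 0.78 in WT and 0.66 in β8ITG-cKO, against 0.16 and 0.23 for all genes tested. After rescaling 7 rose and 3 fell in each genotype, with medians of 0.55 and 0.41. Gcnt2, which branches the poly-N-acetyllactosamine chains that galectins favor, rose from 1.86, 1.24 and 2.44 FPKM to 7.28, 6.24 and 8.55 in WT (log2 change 1.57, SE 0.20, adjusted p = 0.00192), and from 0.626, 0.196 and 0.632 to 5.66, 4.19 and 4.66 in β8ITG-cKO (1.98, SE 0.17, adjusted p = 0.000102). All libraries at 24 h were above those at 0 h. At 0 h Gcnt2 was lower in β8ITG-cKO (-0.93, SE 0.21, adjusted p = 0.0416), the only gene of the list past the test there. St6gal1, whose sialic acid cap blocks binding by several galectins, rose in WT (1.36, SE 0.27, adjusted p = 0.0087) and in β8ITG-cKO (1.11, SE 0.14, adjusted p = 0.000667). Gcnt1, which branches O-glycans, also rose in both (1.23, SE 0.24, adjusted p = 0.00902 in WT, and 1.42, SE 0.15, adjusted p = 0.000287 in β8ITG-cKO). Man2a2, a Golgi mannosidase gene, fell in WT (-0.71, SE 0.16, adjusted p = 0.0149), with -0.10 in β8ITG-cKO (adjusted p = 0.532, or -0.39 and 0.0221 after rescaling). Mgat3, whose bisecting residue limits branching, fell in β8ITG-cKO (-0.70, SE 0.18, adjusted p = 0.0141), with -0.67 in WT (adjusted p = 0.0727, or 0.0398 after rescaling). At 24 h only Man2a2 passed between genotypes, at 10.7 FPKM in WT and 23.6 in β8ITG-cKO (1.06, SE 0.14, adjusted p = 0.00521).

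Among 14 genes of glycoproteins known to bind galectins, 13 were tested over time, of which 9 rose and 1 fell in WT and 8 rose and 1 fell in β8ITG-cKO. Of all genes tested 20.9% rose in WT and 35.4% in β8ITG-cKO. The medians were 0.67 and 0.83, against 0.16 and 0.23 for all genes. After rescaling 5 rose and 1 fell in WT, with a median of 0.41. Fn1, which encodes fibronectin, rose from 3.29, 2.13 and 2.84 FPKM to 110, 181 and 46.7 in WT (log2 change 4.73, SE 0.43, adjusted p = 0.000511), and from 5.86, 5.23 and 5.96 to 73.5, 98.1 and 66.4 in β8ITG-cKO (3.57, SE 0.15, adjusted p = 5.2e-06). At 24 h the WT libraries spanned those of β8ITG-cKO, and at 0 h Fn1 was higher in β8ITG-cKO (0.84, SE 0.15, adjusted p = 0.0206). Itga5, the α subunit of the fibronectin receptor, rose 10.8-fold in WT (3.05, SE 0.34, adjusted p = 0.000993) and 5.29-fold in β8ITG-cKO (2.09, SE 0.12, adjusted p = 1.65e-05). Bsg (basigin) fell in both, by 0.72 on the log2 scale in WT (adjusted p = 0.0185) and by 0.60 in β8ITG-cKO (adjusted p = 0.00583). Of 12 tested at 0 h, Fn1 and the laminin receptor subunit gene Itga3 (0.54, SE 0.11, adjusted p = 0.0319, or 0.0594 after rescaling) were higher in β8ITG-cKO, and Cd44, a hyaluronan receptor gene, was lower (-0.75, SE 0.15, adjusted p = 0.0294). At 24 h 0 of 13 passed between genotypes in limma-trend, with 3 at an unadjusted p under 0.05. After rescaling 1 did, Itga5 (-1.32, adjusted p = 0.0466).

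Of 10 lysosome repair and autophagy genes, machinery that galectin-3 and galectin-8 engage inside cells, 2 rose and 1 fell over time in WT, where 20.9% of all genes rose, and 5 rose in β8ITG-cKO, where 35.4% did. After rescaling 1 rose and 1 fell in WT and 2 rose in β8ITG-cKO. The medians were 0.40 and 0.33, and 0.18 and 0.07 after rescaling. Sqstm1, the autophagy receptor p62, rose from a mean of 103 to 152 FPKM in WT (0.56, SE 0.18, adjusted p = 0.0482, or 0.238 after rescaling) and from 47.9 to 110 in β8ITG-cKO (1.18, SE 0.09, adjusted p = 5.36e-05), and it was lower in β8ITG-cKO at 0 h (-1.08, SE 0.11, adjusted p = 0.00295). Pdcd6ip (ALIX), an ESCRT partner, rose in WT (0.65, SE 0.15, adjusted p = 0.0142) and in β8ITG-cKO (0.46, SE 0.09, adjusted p = 0.00522, or 0.0981 after rescaling). Atg16l1, which helps lipidate LC3, rose in β8ITG-cKO (0.90, SE 0.15, adjusted p = 0.00252), with 0.39 in WT (adjusted p = 0.188). The autophagy kinase gene Ulk1 fell in WT (-0.73, SE 0.16, adjusted p = 0.0121) and was higher in β8ITG-cKO at 24 h (0.73, SE 0.16, adjusted p = 0.0351, or 0.0632 after rescaling).

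Interferon-stimulated genes rose together over time, in 9 of 9 tested in WT and 8 of 8 in β8ITG-cKO, with medians of 2.11 and 1.40. Over all genes tested 20.9% rose in WT and 35.4% in β8ITG-cKO, with medians of 0.16 and 0.23. Irf7, a transcription factor of this response, went from 0.466, 1.72 and 0.709 FPKM to 6.36, 11.4 and 9.3 in WT (2.37, SE 0.28, adjusted p = 0.00138) and from 1.66, 0.614 and 1.67 to 11.1, 9.87 and 12 in β8ITG-cKO (2.41, SE 0.21, adjusted p = 9.93e-05). Isg15, a ubiquitin-like modifier, rose by 3.16 in WT (SE 0.37, adjusted p = 0.00132) and 1.91 in β8ITG-cKO (SE 0.22, adjusted p = 0.000411). Among 9 tested at 24 h, the antiviral gene Rsad2 was lower in β8ITG-cKO (-1.46, SE 0.27, adjusted p = 0.0206). Rescaling left these counts as they were over time. The log2 change of Lgals9 was 1.08 in WT and 0.35 in β8ITG-cKO, or 0.74 without β8ITG-cKO 24 h replicate 1. Whether it is linked to these genes, or to the ISRE match printed above, was not tested.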

How the data were processed

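Lens capsule libraries (3 per condition, 12 in all) were grouped by the labels. The authors deposited FPKM per library and gene in 4 tables of 45859 genes, 1 for each pair of conditions, made from stranded total RNA read pairs with Cuffdiff. A library had the same FPKM in each table. The submitters' processing notes name FastQC, cutadapt 1.12, TopHat2 2.1.0, Cuffdiff 2.2.1, mm10 and GRCm38.p5, with no role given here. The tables also hold the results of the authors' own comparisons (group values, log ratios, significance) and 8 columns of group means, none of which was used.

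FPKM were taken as log2(FPKM + 1), and genes averaging 0.5 FPKM or more in the 6 libraries compared were fitted with limma-trend (limma 3.58.1, R 4.3.3), with Benjamini-Hochberg adjustment over all of them and a threshold of 0.05. A fold change on this scale understates the change of low genes. The difference between the changes over time came from 1 fit over 12 libraries. An exact permutation test of 3 against 3 libraries cannot go below p = 0.1 and was not used. FPKM carry no read counts, so no counting error is given. The spread is that between pools of 5 capsules. Before use the fit was run on data simulated around the WT values, with known changes in far fewer genes than passed here. That run does not check the adjusted p values in data where many genes change. Replicate numbers did not pair libraries.

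The members and gene lists were chosen with earlier results of these data known. Named are all members, the 2 genes of each list with the largest rise and the 2 with the largest fall among those past the test in each comparison, the 5 genes most like Lgals3 and most like Grifin (among genes averaging 5 FPKM or more, predicted genes and pseudogenes left out), and Itgb8. The values of some single genes that this rule names are left out. Symbols matched RefSeq for 92.5% of table rows and all 7 members. Promoter windows were read from RefSeq (GRCm38.p6) for 6 members, and none was at hand for Lgals1. Alternatives were a pseudocount of 0.1, no filter or a filter of 2 FPKM, rescaling to the same median over genes of at least 2 FPKM, 1 fit over 12 libraries, the replicate block, the study's size criteria (fold above 2, difference above 2 FPKM, at least 2 FPKM in a group) and each library left out. Python 3.11.15, pandas 2.3.3, numpy 2.4.6 and matplotlib 3.10.9 were used.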

Additional observations from a re-analysis of the deposited data

Results flagged for a closer look

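Among the genes named above from the galectin family, glycan enzyme, glycoprotein, autophagy and interferon lists, the change over time differed between the genotypes for Rsad2. It differed by -1.33 (β8ITG-cKO minus WT, log2 scale, SE 0.32, adjusted p = 0.0265 in the limma fit over 12 libraries). Its WT libraries went from 0.249, 0.0422 and 0.251 FPKM to 2.96, 6.97 and 5.69, and those of β8ITG-cKO from 0.0318, 0.0873 and 0.105 to 1.18, 0.847 and 1.5. For Ulk1 the changes differed by 0.77 (SE 0.21, adjusted p = 0.0407), with 7.32, 6.99 and 6.31 FPKM at 0 h and 4.05, 3.08 and 4.18 at 24 h in WT, and 7.68, 5.39 and 7.12 and then 7.21, 6.01 and 7.42 in β8ITG-cKO. Over all 15262 genes tested, 9.39% passed this test. Of the list genes not named above, the glycan enzyme gene Mgat4b also passed (-0.63, SE 0.14, adjusted p = 0.021 in the same fit). The genes used above to gauge cell types were not part of this selection, and some of them passed too. Among these were Cdh1 (-1.59, SE 0.16, adjusted p = 0.00143), Slc1a3 (1.79, SE 0.49, adjusted p = 0.0399) and all 8 photoreceptor genes.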

How the results depend on the processing

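Of 433 values of single members under other settings, 416 kept their direction and side of the threshold or moved by less than their spread. The count of members past the test stayed at 4 or 5 over time in WT (3 without WT 0 h replicate 1), at 2 or 3 over time in β8ITG-cKO, and at 0 between genotypes except in the settings given next, in which single libraries were left out. At 24 h it ranged from 0 to 1 (1 without WT 24 h replicate 3) and at 0 h from 0 to 1 (1 without WT 0 h replicate 2). Lgals4 changed sign over time in β8ITG-cKO on rescaling (-0.0035) and at 0 h without WT 0 h replicate 2 (0.10) or β8ITG-cKO 0 h replicate 3 (0.05), with a range of -0.27 to 0.10 over libraries left out. The difference between the changes of Lgals3 ranged from -1.69 to -1.41 with a library left out.

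Counts over all genes moved more. With the study's size criteria they were 2159 of 4500 over time in WT, 2294 of 7030 in β8ITG-cKO, 562 of 966 between genotypes at 24 h and 371 of 1020 at 0 h. A filter of 2 FPKM gave 574 at 24 h and 1 fit over all 12 libraries gave 1538, and no filter gave 254 at 0 h. With 1 library left out the counts ran from 2512 to 5087 over time in WT, 5639 to 6300 in β8ITG-cKO, 439 to 1108 at 24 h and 136 to 756 at 0 h. In such fits the smaller group has 2 libraries. Same-numbered libraries did not deviate together (correlations of -0.249 to 0.0962), and with the replicate number as a block the count was 269 at 0 h, while the counts of members were those of the unblocked fit. The cause of these shifts was not tested. Values near 1 FPKM, such as those of Lgals4, are limited by depth, which is not known in reads.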
